A study of Mus musculus with 7 samples.

Results

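Heat shock chaperones bind unfolded or partly folded proteins and help them fold, assemble or be degraded. HSP70 proteins hold short stretches of a client in cycles of ATP use, J-domain proteins of the DNAJ families bring clients to them and start ATP hydrolysis, and HSP110 proteins reset them by releasing ADP. HSP90 proteins act later on clients such as kinases and steroid receptors, and in mitochondria the HSPD1 and HSPE1 proteins form a folding chamber. Some of the genes are expressed at all times and others are induced through the transcription factor HSF1 when proteins misfold.

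Transcripts of 10 such genes are described here in 7 libraries of mouse granulocytes, 4 wild type and 3 knockout for Alox15, all labelled untreated. Alox15 encodes a lipoxygenase that oxidises polyunsaturated fatty acids, and the series title concerns ferroptosis of neutrophils in tumours. The members were chosen from the measured pattern of Hsph1, whose level ran against the neutrophil transcripts over these libraries, together with chaperones that work beside it. The levels over libraries are therefore given as a description, and a test is given only for the genotype contrast, which the choice did not use. All 10 members were found among the 51789 genes of the table, and all 10 passed the filter on low counts, which used both genotypes.

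The libraries held 3228292 to 5657192 counts, read as tags near the 3′ ends of polyA RNA, so a level does not grow with transcript length. Levels are CPM, counts relative to library size, after scaling by TMM, the trimmed mean of M values, which sets aside genes that differ most between libraries. The labels give no animal, strain, age, sex, sorting or deleted part of Alox15, and nothing in them says that replicates are separate animals, so p-values speak only of the spread among these samples, part of which may be technical. Alox15 had 0 counts in the 4 wild-type libraries and 1, 0 and 0 in the knockouts, so it gives no check of the genotype. Knockouts 2 and 3, whose descriptions carry another letter than the other 5 libraries, had 382 and 102 CPM of Xist and under 0.4 CPM of the Y-linked Ddx3y, against at most 6.11 and at least 19.3 CPM in the others. Sex and that letter cannot be told apart from part of the genotype contrast.

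Granulocyte transcripts were present in all libraries at very unequal levels. The summed level of 22 mature neutrophil genes was 54242, 5638, 21738 and 21347 CPM in wild types 1 to 4 and 42934, 27997 and 3718 CPM in knockouts 1 to 3. Wild type 2 and knockout 3 were thus the libraries poorest in these transcripts. They also held the highest summed levels of 18 T and NK cell markers, 1321 and 1599.8 CPM, against 569 to 1124 CPM in the others, and of 20 proliferation genes, 4184 and 4063 CPM against 1896 to 3744 CPM. Of the T and NK list 17 of 18 genes had counts. Its marker Cd3d stood at 93.5 to 441 CPM, highest in knockout 3. In wild type 4 Cd3d was at 212 CPM, against 202 CPM in wild type 2. The proliferation marker Mki67 stood at 446 CPM in wild type 2, 444 CPM in wild type 4 and 427 CPM in knockout 3. Neither marker alone thus set wild type 2 and knockout 3 apart from wild type 4. The B cell marker Cd79a was at 0 in wild type 1 and at most 12.7 CPM elsewhere. In bulk RNA, fewer cells of a type and less RNA per cell cannot be told apart. What part this make-up has in the chaperone levels was not tested.

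No chaperone passed the genotype test, and what varied was the pattern over libraries, which differed among the members. Hsph1, Hspa8 and Hsp90aa1 had their 2 highest levels in wild type 2 and knockout 3. Hspe1 and Hsp90ab1 were highest in knockout 3, but only 3rd and 4th highest in wild type 2. Hspd1 and Dnaja1 were highest in wild type 2, and Dnajb1 in wild type 1. The stress-inducible Hspa1a and Hspa1b were at or near their lowest in wild type 2 and knockout 3. Together the 10 members took from 0.516% of all counts in wild type 1 to 1.09% in wild type 2, and Hsp90aa1 and Hsp90ab1 made up 67.8% to 81.5% of that. The highest of the 7 libraries was wild type 2 or knockout 3 for 7 of 10 members, beside 28.5% of all 12506 genes tested and 30.9% of the 5027 with a mean of at least 5 log2 CPM. Since Hsph1 was picked for this pattern, nothing is read from that count. It was also so for 39 of the 92 other chaperone genes tested, among them 5 of the 8 CCT genes. Without TMM scaling the count was again 7 of 10, with Hsp90aa1 then highest in wild type 2. Beside it stood 49 of the 92 other chaperones, with 8 of 8 CCT genes among them, 4396 of 12506 and 1971 of 5027.

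**Figure D1:**
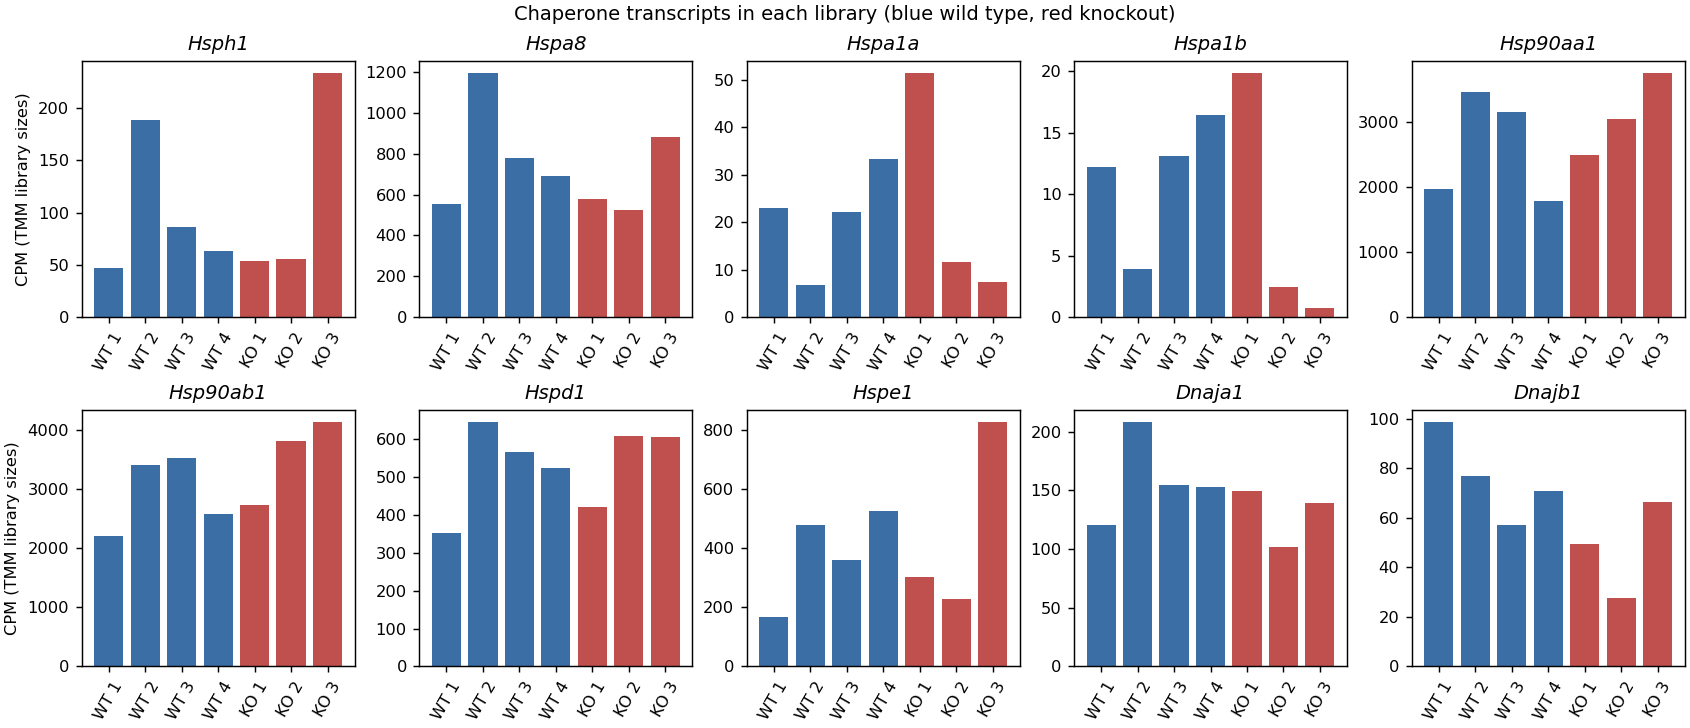
Level of each chaperone transcript in the 7 libraries, in CPM on TMM library sizes, with 1 bar per library, blue for wild type (WT) and red for knockout (KO). Each panel has its own axis from 0. Hsph1 stands at 188 CPM in WT 2 and 233 CPM in KO 3 and at no more than 86.6 CPM elsewhere, while Hspa1b is below 4 CPM in WT 2, KO 2 and KO 3.

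Hsph1 encodes HSP105, a member of the HSP110 family and exchange factor of HSP70. It lies on the minus strand of chromosome 5, 149614287 to 149636376 (GRCm38; the same for the positions that follow). It stood at 47.5, 188, 86.6 and 63.8 CPM in wild types 1 to 4 and at 54.2, 55.4 and 233 CPM in knockouts 1 to 3. Wild type 2 and knockout 3 were far above the rest, 1 in each genotype. The groups overlapped in part, with wild type 1 below all knockouts and knockout 3 above all wild types. The SD of its log2 CPM over the 7 libraries was 0.92, and 89.3% of the 5027 genes at or above 5 log2 CPM varied less. The knockout mean was 114 ± 103 CPM (SD, n = 3) and the wild-type mean 96.5 ± 63.1 CPM (SD, n = 4). The log2 fold change, knockout minus wild type, was 0.24 ± 0.64 (SE), and without knockout 3 it turned to -0.90. By the edgeR quasi-likelihood test the adjusted p was 0.99995.

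Hspa8 encodes HSC70, the HSP70 that cells make at all times (plus strand of chromosome 9, 40800984 to 40810087). It stood at 553, 1193, 777 and 692 CPM in wild types 1 to 4 and at 580.1, 524 and 883 CPM in knockouts 1 to 3. The same 2 libraries were highest as for Hsph1, over a narrower span of 2.28-fold. Its log2 fold change was -0.28 ± 0.36 (SE), and it moved to -0.023 without wild type 2 and to -0.61 without knockout 3. Of the 50-base words in the last 500 bases of the Hspa8 transcript, 81.8% also occur in transcripts of other genes, mainly the pseudogene Gm15459. The sources used here do not say how such reads were assigned, so its level is uncertain, and Gm15459 itself held 0 to 89 counts per library.

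Hspa1a and Hspa1b encode near-identical HSP70 proteins and are the HSP70 genes best known for induction by heat and other stress. They are neighbours on the minus strand of chromosome 17, at 34969190 to 34972156 and 34956436 to 34959238. Their promoters are shown because both genes were highest in knockout 1 and lowest in wild type 2, knockout 2 and knockout 3. The 250 bases before each start differ at 3 positions, so they are 98.8% identical. Capitals mark GAANNTTC, a facing pair of the GAA units that make up the element heat shock factors bind, which begins at position -104 from each start. Sequences are from RefSeq on GRCm38.p6, minus strand, 5′ to 3′, at chr17:34972157-34972406 for Hspa1a and chr17:34959239-34959488 for Hspa1b.
Hspa1a: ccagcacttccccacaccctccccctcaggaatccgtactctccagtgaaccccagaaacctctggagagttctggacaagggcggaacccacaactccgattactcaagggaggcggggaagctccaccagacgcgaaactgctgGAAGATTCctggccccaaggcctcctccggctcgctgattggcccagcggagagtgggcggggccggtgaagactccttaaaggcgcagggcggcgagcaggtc
Hspa1b: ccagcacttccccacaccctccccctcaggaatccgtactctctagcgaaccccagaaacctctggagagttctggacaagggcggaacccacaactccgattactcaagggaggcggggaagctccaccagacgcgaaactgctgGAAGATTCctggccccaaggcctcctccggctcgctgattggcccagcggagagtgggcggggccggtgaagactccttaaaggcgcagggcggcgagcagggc

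Hspa1a stood at 23.0, 6.89, 22.05 and 33.4 CPM in wild types 1 to 4 and at 51.3, 11.6 and 7.40 CPM in knockouts 1 to 3. Hspa1b stood at 12.3, 3.92, 13.1 and 16.4 CPM and at 19.8, 2.45 and 0.779 CPM. Both were highest in knockout 1, and wild type 2, knockout 2 and knockout 3 were the lowest 3 libraries for both. The level of Hspa1b in knockout 3 rests on 4 counts (exact Poisson 95% interval 0.212 to 1.99 CPM, for counting error only), and that in knockout 1 on 102 counts (16.2 to 24.1 CPM). These intervals do not meet, so the difference between those 2 libraries is larger than counting error. The last 500 bases of the transcripts share no 50-base word between the genes or with any other annotated gene, so tags there can be told apart.

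The genotype contrast of the stress-inducible pair was within the spread between libraries. The log2 fold change was 0.15 ± 0.72 (SE) for Hspa1a and -0.55 ± 0.96 for Hspa1b, each with an adjusted p of 0.99995 in edgeR. Leaving out knockout 1 moved them to -1.16 and -2.84. The unadjusted p of Hspa1b was then 0.0116 (adjusted p = 0.999995 in edgeR), where knockouts 2 and 3 hold 8 and 4 counts. Leaving out wild type 2 turned Hspa1a to -0.15. Immediate early genes, which cells switch on within minutes of stimulation or handling, were summed over 17 genes beside them. They stood at 22792, 2977, 9872 and 9795 CPM in wild types 1 to 4 and at 18068.5, 11504 and 2819 CPM in knockouts 1 to 3. Their sum was lowest in wild type 2 and knockout 3, as was that of the neutrophil genes, but not low in knockout 2, where Fos stood at 536 CPM. Fos, Nr4a1 and Atf3 were each lowest in wild type 2 and knockout 3, but Fosb and Jund were not. Fosb stood at 135 CPM in wild type 2 against 67.5 CPM in wild type 4. Jund stood at 1031 CPM in knockout 3 against 585 CPM in knockout 1. Of the 17, 0 passed, 3 were fitted higher and 14 lower in knockout (median log2 fold change -0.36). The summed level of 14 monocyte and macrophage markers, all with counts, was 1409, 411, 931 and 1463 CPM in wild types 1 to 4 and 2691, 1393 and 742 CPM in knockouts 1 to 3. It was highest in knockout 1 and lowest in wild type 2 and knockout 3, but not low in knockout 2. Its marker C1qb stood at 15.8, 15.5, 46.5 and 52.2 CPM and at 161, 66.5 and 31.5 CPM, as low in wild type 1 as in wild type 2. The part of either list in the Hspa1a and Hspa1b levels was not tested.

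**Figure D2:**
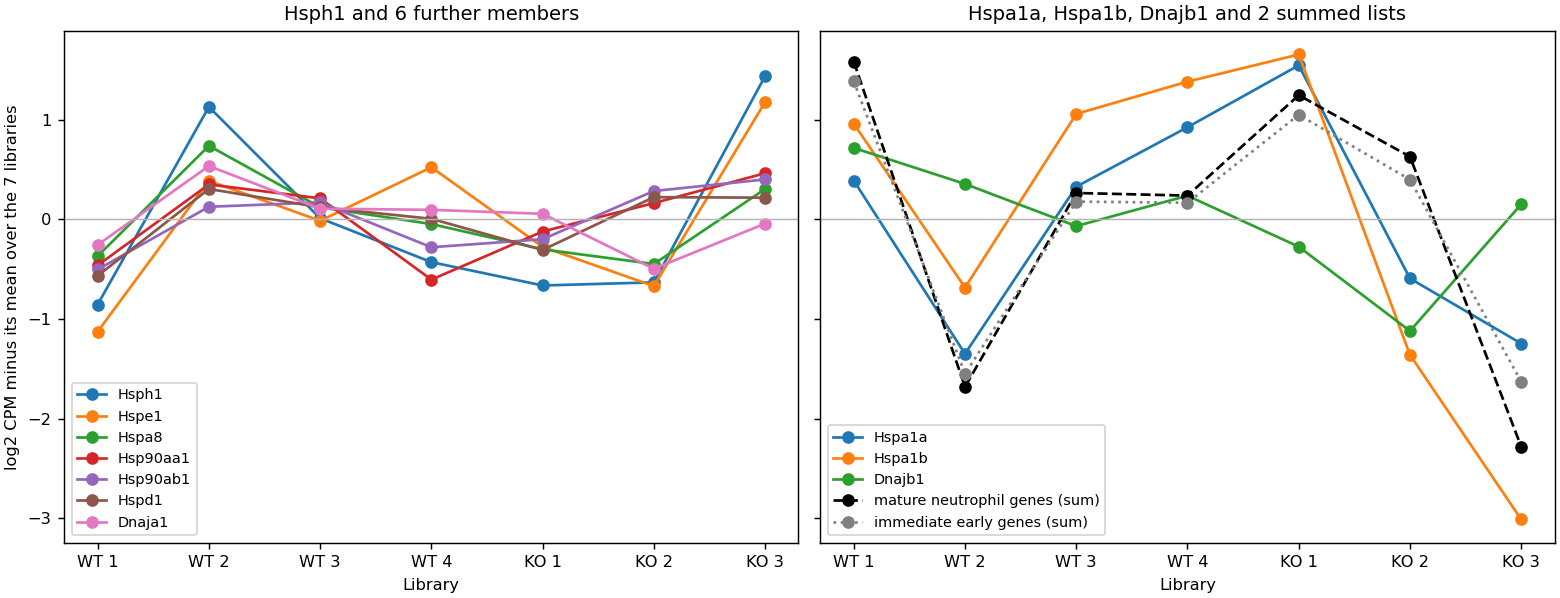
Log2 CPM of each member minus its own mean over the 7 libraries (vertical axis), by library (horizontal axis; WT wild type, KO knockout). Points are single libraries and lines only join the points of 1 gene or list. At left, Hsph1 (188 and 233 CPM) and Hspa8 are raised in WT 2 and KO 3. At right, Hspa1a and Hspa1b are low in WT 2, KO 2 and KO 3, and the dashed and dotted lines are the summed levels of 22 mature neutrophil genes and 17 immediate early genes.

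The J-domain partners of HSP70 did not share 1 pattern. Dnaja1 (plus strand of chromosome 4, 40722150 to 40737149) stood at 120.1, 208, 155 and 153 CPM in wild types 1 to 4 and at 149, 102 and 139 CPM in knockouts 1 to 3. Only wild type 2 stood above the others, and knockout 3 was the fifth highest of 7. Dnajb1, the stress-inducible HSP40 (plus strand of chromosome 8, 83608193 to 83612653), stood at 98.6, 76.7, 57.2 and 70.7 CPM in wild type and at 49.6, 27.6 and 66.6 CPM in knockout. Its 2 lowest libraries were knockouts, and knockout 3 lay inside the wild-type range. Dnajb1 had the smallest unadjusted p of the members, 0.0921 in edgeR, with a log2 fold change of -0.66 ± 0.35 (SE) and an adjusted p of 0.99995. Alternative settings share libraries, and they include the description letter as a covariate, which sets knockout 1 alone against the wild types. An exclusion of wild type 2 and knockout 3 chosen after seeing the data is also among them. The log2 fold change of Dnajb1 stayed below 0 in each of these 15 settings. It was -0.38 without knockout 2 and -1.03 without knockout 3, and its unadjusted p reached 0.0209 at the latter (adjusted p = 0.997 in edgeR, and 0.893 to 1.0 over the 15 settings). For Dnaja1 the log2 fold change was -0.29 ± 0.28 (SE).

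The HSP90 genes had the highest levels of the members, with spans of 2.10-fold and 1.87-fold over the libraries. Hsp90aa1, the more inducible form (minus strand of chromosome 12, 110690605 to 110702728), stood at 1979, 3475, 3155 and 1792 CPM in wild types 1 to 4 and at 2504, 3053 and 3757 CPM in knockouts 1 to 3. Hsp90ab1, the form made at all times (minus strand of chromosome 17, 45567775 to 45573271), stood at 2211, 3420.2, 3525 and 2580.0 CPM and at 2729, 3816 and 4136 CPM. Wild types 1 and 4 and knockout 1 were the lowest 3 libraries for both genes, and knockout 3 the highest on TMM library sizes. In rank by mean log2 CPM, Hsp90ab1 was 17th and Hsp90aa1 25th of the 12506 genes tested. The log2 fold changes were 0.26 ± 0.38 (SE) for Hsp90aa1 and 0.28 ± 0.35 for Hsp90ab1, and without knockout 3 they were 0.027 and 0.091.

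The genes of the mitochondrial chaperonin lie side by side on opposite strands of chromosome 1, and their annotated 5′ ends overlap. Hspe1, for the lid HSP10, runs on the plus strand from 55088132 to 55091307, and Hspd1, for the barrel HSP60, on the minus strand from 55077835 to 55088243. RefSeq starts Hspe1 at 55088148, later than the GENCODE position above, and the distances that follow use the RefSeq start. RefSeq lists 2 starts of Hspd1. From the farther one Hspd1 overlaps Hspe1 by 96 bases, and the nearer one lies 216 bases upstream of the Hspe1 start, with a run of alternating GAA and TTC units between that start and Hspe1. These are shown with the run in Hsph1, which begins 15 bases after the second listed Hsph1 start. Capitals mark overlapping or single matches to GAANNTTCNNGAA or TTCNNGAANNTTC. The first is the plus strand of chr1:55088053-55088082 and the second the minus strand of chr5:149636277-149636306, from RefSeq on GRCm38.p6.
Hspe1 and Hspd1: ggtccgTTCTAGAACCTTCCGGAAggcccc
Hsph1: tgcagaTTCTGGAAAGTTCtcctcagtagg

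Such a run of 3 units was found in windows of 3 of the 7 members with an entry, Hsph1, Hspd1 and Hspe1. It is held by 0.603% of the 32851 windows of 300 bases in the table (250 before to 50 after a start). The shorter pairs GAANNTTC or TTCNNGAA, each its own reverse complement and contained in the longer runs, were found for 6 of the 7, in all but Dnajb1, and in 15.1% of windows. Some members have several windows: of their 12 windows, 7 held a pair and 4 a run of 3 units. The members' counts over any window are thus not on the footing of the shares of single windows, and the run in Hspd1 and Hspe1 is 1 and the same stretch. The motif search read both strands. A match is a description of letters and not a measured binding site. Hspa8, Hsp90aa1 and Hsp90ab1 had no entry.

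Despite the shared start region, the chaperonin genes differed in spread. Hspe1 stood at 167, 478, 362 and 526 CPM in wild types 1 to 4 and at 302, 229.7 and 827 CPM in knockouts 1 to 3, a span of 4.94-fold. Hspd1 stood at 352, 644, 567 and 523 CPM and at 421, 609 and 606 CPM, a span of 1.83-fold. Knockout 3 was the highest library for Hspe1 but the third for Hspd1, and wild type 1 was the lowest for both. The log2 fold change was 0.24 ± 0.52 (SE) for Hspe1, which turned to -0.60 without knockout 3, and 0.06 ± 0.32 for Hspd1. For Hspe1, 53.2% of the 50-base words at the 3′ end also occur in transcripts of other genes, against 0 for Hspd1, so the reads of Hspe1 are the less certain.

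Over the whole comparison edgeR called 0 of 12506 genes (0%) at an adjusted p under 0.05, and 0 of the 10 members. At an unadjusted p under 0.05 it had 154 genes (1.23%) and again 0 members. DESeq2 called 1 gene and limma-voom 0, neither a member, with 213 and 524 genes and 0 and 1 members at an unadjusted p under 0.05. The member was Dnajb1. Levels of the 2 groups did not overlap for 3.13% of genes and for 0 of 10 members. Of the members 6 were fitted higher and 4 lower in knockout, where 48.6% of all genes were fitted lower. Their median log2 fold change was 0.11, and that of all genes tested 0.01.

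**Figure D3:**
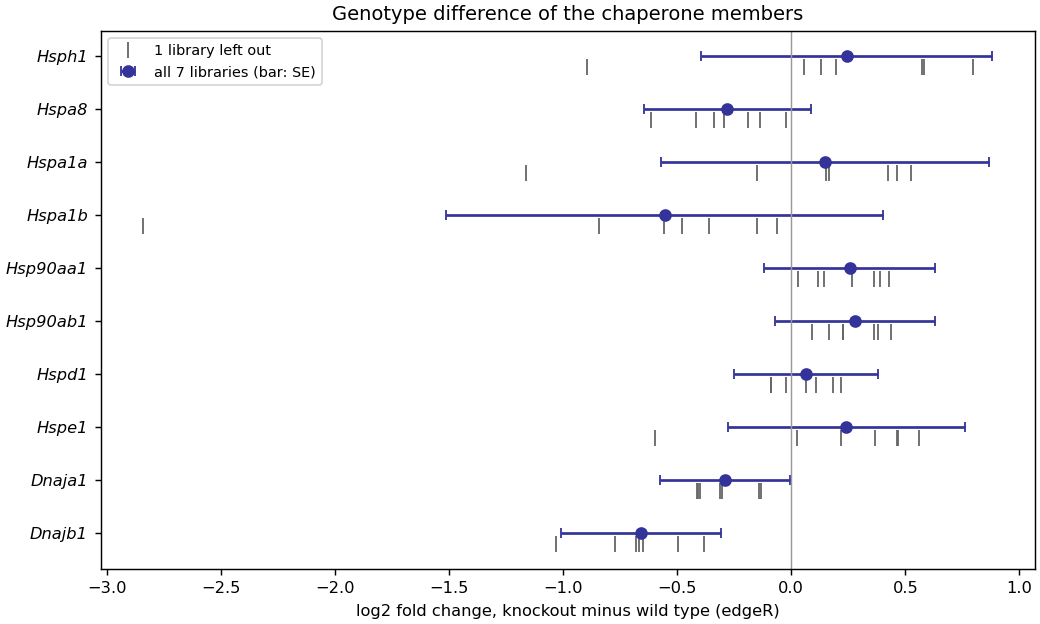
Log2 fold change of each member, knockout minus wild type, from edgeR. Points are the fit with all 7 libraries, bars their SE, and grey ticks the 7 fits that leave out 1 library. Every bar but that of Dnajb1 and Dnaja1 crosses 0, and single libraries move Hsph1 to -0.90 and Hspa1b to -2.84.

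Ratios within a library do not depend on scaling between libraries. The counts of Hspa1a plus Hspa1b, the inducible HSP70 genes, came to 6.42%, 0.919%, 4.55% and 7.23% of those of Hspa8 in wild types 1 to 4 and to 12.3%, 2.75% and 0.948% in knockouts 1 to 3 (1 count added throughout). This ratio spanned 13.4-fold, and wild type 2 and knockout 3 were lowest. The ratio of Hsph1 to Hspa8 went the other way, at 15.8% and 26.4% in those libraries against 8.63% to 11.2% in the others. Hsp90aa1 over Hsp90ab1 kept within 1.46-fold, from 69.5% to 102%.

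Hspd1 over Hspe1 ran from 73.3% in knockout 3 to 265% in knockout 2, both knockouts. Dnajb1 over Dnaja1 ran from 27.3% in knockout 2 to 82.1% in wild type 1. On the log2 scale its knockout mean was -1.51 ± 0.41 (SD, n = 3) and its wild-type mean -1.07 ± 0.54 (SD, n = 4). For none of the 5 ratios did the genotype difference pass the test. By exact two-sided permutation over the 35 ways to choose 3 of 7 libraries, where the smallest p is 0.0286, the p was 0.343 for Dnajb1 over Dnaja1, 0.543 for Hsph1 over Hspa8 and 0.886 for the other 3, and 0.886 for all 5 after Benjamini-Hochberg adjustment.

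**Figure D4:**
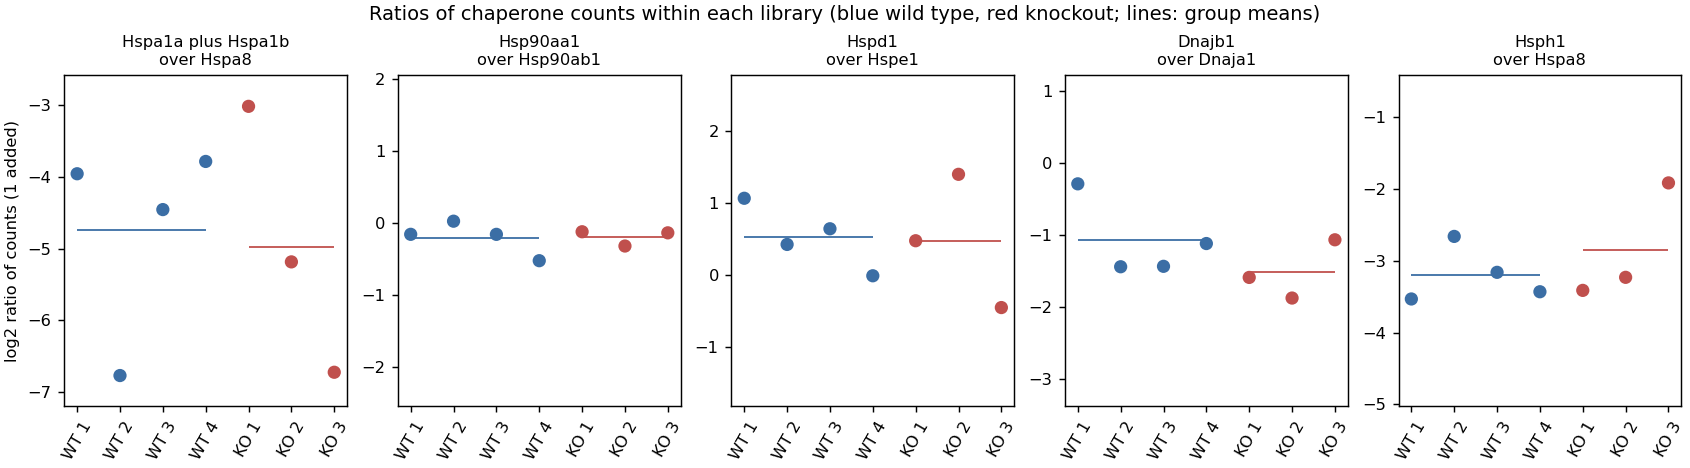
Log2 ratio of counts of paired chaperones within each library (1 count added), blue for wild type (WT) and red for knockout (KO), with lines at the group means. All panels span the same number of log2 units. Hspa1a plus Hspa1b over Hspa8 spans 13.4-fold and Hsp90aa1 over Hsp90ab1 1.46-fold.

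Profiles were compared by the root mean square difference of log2 CPM after centring each gene over the 7 libraries, where 0 is an identical pattern. The nearest pairs of members were Hsp90ab1 with Hspd1 at 0.155, Hsp90aa1 with Hsp90ab1 at 0.162 and Hspa8 with Dnaja1 at 0.215. Hspa1a with Hspa1b lay farther apart, at 0.695, but each was the nearest member to the other. The next nearest were Dnaja1 to Hspa1a at 1.07 and Dnajb1 to Hspa1b at 1.40. Distances of Hspa1b rest in part on 8 and 4 counts in knockouts 2 and 3. Hspa1b was the farthest from Hsph1, at 2.10. Against the other 5026 genes at or above 5 log2 CPM, whose median distance from Hsph1 was 0.906, Hspe1 ranked 45th at 0.499 and Hspa8 71st at 0.531. Hsp90aa1 ranked 336th, Hsp90ab1 729th, Hspd1 733rd, Dnaja1 1053rd and Dnajb1 2376th. The profile nearest to Hsph1 was that of Tcf19, a nuclear protein gene of proliferating cells, at 0.390. The next were Prdx4, a peroxiredoxin of the endoplasmic reticulum, at 0.396, Mrpl51, a mitochondrial ribosomal protein gene, at 0.397, and Apod, apolipoprotein D, and Cyp51, a sterol synthesis enzyme gene, both at 0.398. These points share libraries and depth, and the distances are a description.

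Of 111 other chaperone and co-chaperone genes on 9 lists, 92 were tested and 0 passed. Of these 39 were fitted higher and 53 lower in knockout (median log2 fold change -0.04). Among the heat shock factors, Hsf1, the main activator of the stress response, had a wild-type mean of 11.9 ± 6.91 CPM (SD, n = 4) and a knockout mean of 8.56 ± 4.71 CPM (SD, n = 3). Hsf1 was highest in wild type 4 at 21.2 CPM, not in the libraries high in Hsph1, where it stood at 11.3 and 7.79 CPM. Hsf2 stood at 13.8 to 34.0 CPM, highest in wild type 2, 1 of the libraries high in Hsph1, and at 19.1 CPM in knockout 3, the other. Transcript levels of these factors do not measure their activity.

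The CCT chaperonin, which folds actin and tubulin, had all 8 subunits tested, 1 fitted higher and 7 lower (median -0.03). Their summed level was 1231, 2386, 2168 and 1645 CPM in wild types 1 to 4 and 1559, 1786 and 1945 CPM in knockouts 1 to 3, lowest in wild type 1, as were Hsph1, Hsp90ab1, Hspd1 and Hspe1. The log2 fold change of Cct2 was -0.35 ± 0.29 (SE), and that of Cct4 -0.29 ± 0.36. Of 18 HSP90 co-chaperones 7 were fitted higher and 11 lower (median -0.12). Ptges3, the p23 co-chaperone, had a wild-type mean of 238 ± 63.8 CPM (SD, n = 4) and a knockout mean of 191 ± 19.7 CPM (SD, n = 3). The log2 fold change of Nudc was -0.56 ± 0.33 (SE), and that of Unc45a, a myosin chaperone, 0.51 ± 0.36.

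Of 9 HSP70 exchange factors and regulators 5 were fitted higher and 4 lower (median 0.04). Bag3, an HSF1 target and exchange factor, stood at 5.98 to 11.1 CPM in wild type and 8.27 to 14.6 CPM in knockout, highest in knockout 3. Of 12 mitochondrial chaperones and proteases 7 were fitted higher and 5 lower (median 0.05). Of the 6 other HSP70 and HSP110 genes tested 3 were fitted higher and 3 lower (median -0.02). Among them Hspa9, the mitochondrial HSP70, had a wild-type mean of 279.6 ± 87.0 CPM (SD, n = 4) and a knockout mean of 313 ± 53.5 CPM (SD, n = 3). Prefoldin, which hands clients to CCT, had 3 of 6 subunits fitted higher and 3 lower.

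Of 29 other J-domain genes tested 11 were fitted higher and 18 lower (median -0.09). At an unadjusted p under 0.05 in edgeR stood 1 of the 92 genes of the 9 lists, beside 1.23% of all genes tested. That gene was Dnajc24, which takes part in diphthamide synthesis (unadjusted p of 0.005 in edgeR, adjusted p = 0.99995). It stood at 4.78, 19.7, 17.9 and 8.47 CPM in wild types 1 to 4 and at 2.92, 0.919 and 2.34 CPM in knockouts 1 to 3, and the groups did not overlap. Of 10 small heat shock protein genes 4 were tested, 3 fitted higher and 1 lower (median 0.56). The 1 fitted lower was Hspb11, at 18.5 to 88.4 CPM, with a log2 fold change of -0.75 ± 0.51 (SE). The others were scarce, at no more than 7.01 CPM. Hspb1, or HSP25, stood at 1.79, 1.72, 3.18 and 0 CPM in wild type and at 4.28, 4.29 and 7.01 CPM in knockout, again without overlap, with a log2 fold change of 1.61 ± 1.05 (SE) that depends on low counts. Dnajc24 and Hspb1 were the 2 of 92 genes whose groups did not overlap, beside 3.13% of all genes tested.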

How the data were processed

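The authors deposited 1 table of estimated counts per Ensembl mouse gene for 7 libraries, whole numbers with no normalization. The submitters' processing notes name mm10, DESeq2 and RSEM 1.2.3 without their roles, so the deposited values may have been rounded by the authors; all were already whole. Per the labels' protocols, RNA was column-purified and DNase-treated, and libraries came from a Quantseq kit. The sources used here give neither the strand setting nor the treatment of multi-mapping reads. Of 51789 genes, 51596 matched a symbol. Positions are from GENCODE M21 (GRCm38, the build of mm10), 1-based; promoters are from RefSeq, matched by symbol.

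Groups came from the titles. Knockout was compared with wild type in edgeR 4.0.16 (R 4.3.3) with filterByExpr, TMM, the quasi-likelihood F test (robust) and p-values adjusted by Benjamini and Hochberg over the 12506 genes kept; a call is an adjusted p under 0.05. Log2 CPM carries a prior count of 2. Alternatives were DESeq2 1.42.0, limma-voom (limma 3.58.1) with quality weights, RLE factors, other filters, each library left out, a block on replicate number, and the description letter as a covariate. Leaving out wild type 2 and knockout 3 together was chosen after seeing the data. The members and lists were chosen with earlier results of these data known. Named genes were all members, up to 4 genes per chaperone list with the smallest unadjusted p, the 5 profiles nearest to Hsph1 at 5 log2 CPM or more and 7 marker genes.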

Additional observations from a re-analysis of the deposited data

How the results depend on the processing

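Every member but Dnajb1 and Dnaja1 had a genotype value smaller than its SE. Over 15 alternatives per member, 0 of 150 values passed the threshold (smallest adjusted p 0.893, limma-voom) and 18 changed sign. Hspa8, Dnaja1 and Dnajb1 kept their sign in all of them. The count of genes called was 0 in every setting but DESeq2, which called 1, the pseudogene Impdh2-ps, named after its value was seen (log2 fold change -4.94, adjusted p = 0.00429).

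With limma-voom, Hsph1 was -0.41 and Hspe1 -0.40. With the description letter as a covariate, the genotype term sets knockout 1 alone against the wild types, since knockouts 2 and 3 carry the other letter, so it describes that library and is no adjusted genotype effect; Hsph1 was -0.83, Hspa1b 0.80, Hsp90aa1 -0.054, Hsp90ab1 -0.10, Hspd1 -0.31 and Hspe1 -0.35. Without wild type 2 and knockout 3 together, Hsph1 was -0.32, Hspe1 -0.46 and the log2 ratio of Hspd1 over Hspe1 0.37. Leaving out 1 library gave ranges of -0.90 to 0.80 for Hsph1, -1.16 to 0.52 for Hspa1a, -0.61 to -0.023 for Hspa8, -2.84 to -0.064 for Hspa1b, 0.027 to 0.43 for Hsp90aa1, 0.091 to 0.44 for Hsp90ab1, -0.41 to -0.13 for Dnaja1, -1.03 to -0.38 for Dnajb1, -0.091 to 0.22 for Hspd1 and -0.60 to 0.56 for Hspe1. For the log2 ratios, the ranges of knockout minus wild type were -1.21 to 0.64 for Hspa1a plus Hspa1b over Hspa8, -0.096 to 0.087 for Hsp90aa1 over Hsp90ab1, -0.52 to 0.41 for Hspd1 over Hspe1, -0.66 to -0.18 for Dnajb1 over Dnaja1 and -0.12 to 0.62 for Hsph1 over Hspa8. The cause was not tested; fewer libraries enter those fits.

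The labels do not say whether replicate numbers 1 to 3 pair the libraries. Deviations from the group means correlated across genes at 0.349, -0.225 and -0.184 for same-numbered libraries, and at 0.47 for wild type 2 with knockout 3. Deviations within a group cancel out, so these values cannot settle a pairing. With the replicate number as a block, 0 genes were called and 80 instead of 154 had an unadjusted p under 0.05. Hsph1 was then -0.022. For the ratios, same-numbered libraries were subtracted, which leaves out wild type 4. The ratios of Hspa1a plus Hspa1b over Hspa8 and Hsp90aa1 over Hsp90ab1 then differed by 0.085 and -0.096. Leaving out wild type 4 without pairing gave the same values, so they show nothing of the pairing itself. The block changed no call. Depth limits Hspa1b most, with 4 to 102 counts per library.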
